A study of Mus musculus with 44 samples.

Results

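The peaks described here are positions that ChIP-seq reported as occupied by the transcription factors IRF3 and NF-kB in Dnmt3a KO mouse macrophages, compared with each other within each treatment. ChIP-seq recovers and sequences the DNA bound to a precipitated protein. Members were chosen by position alone: every IRF3 peak that shared at least 1 bp with an NF-kB peak of the same treatment, and every such NF-kB peak, was called co-occupied, and the remaining peaks were called IRF3 alone or NF-kB alone. The comparison held 8940 peaks of the 15489 in the 8 deposited peak lists of the series, and came from 11 of its 44 samples.

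All cells were macrophages grown from the bone marrow of C57BL/6 mice with 30 ng/ml M-CSF, a macrophage growth factor, in 10% serum, and were collected between day 8 and day 10. The untreated group was Dnmt3a KO without stimulation, and the LPS group was Dnmt3a KO exposed to 10 ng/ml lipopolysaccharide for 6 hours. Both groups thus lack Dnmt3a, a DNA methyltransferase that places methyl groups on unmethylated DNA. The labels do not say how or in which cells the gene was deleted, whether replicates came from separate animals, or which NF-kB subunit the antibody recognised. The untreated IRF3 list merged 2 samples and the other 3 KO lists merged 3 samples each, so no value has a spread between replicates and no difference was tested. Ranges in parentheses after shares are 95% confidence intervals of the exact Clopper-Pearson kind and hold counting error alone. Positions are in mm10, which is the assembly GRCm38. Peak lists give no expression, so neither the loss of Dnmt3a nor the macrophage identity of the cells was checked from marker levels.

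LPS is sensed by Toll-like receptor 4, whose adaptors lead to 2 arms of signalling. In one arm the kinase TBK1 phosphorylates IRF3, which enters the nucleus and binds repeats of GAAA in front of interferon and interferon-induced genes. In the other arm the inhibitor encoded by Nfkbia is degraded, and NF-kB dimers enter the nucleus and bind kB sites at cytokine, acute-phase and feedback genes. Both factors are known to act together at some genes, of which Ifnb1 is the classical case.

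Most of the peaks lay outside promoters. The RefSeq promoter windows of assembly GRCm38.p6, which run from 250 bases before to 50 bases after an annotated start, were touched by few peaks of any class, and 6 of those windows are printed here, 5 under NF-kB-alone peaks with LPS and 1 under both factors. At Tnfaip3 (chr10:19015361-19015660, minus strand), Nfkbia (chr12:55492598-55492897, minus strand) and B2m (chr2:122147437-122147736, plus strand) an NF-kB-alone peak was listed with LPS. Gm14321 (chr2:167777241-167777540, plus strand) is an annotated noncoding start under the NF-kB-alone peak nearest to the coding gene Cebpb, and Gm16174 (chr7:19816335-19816634, plus strand) is one under the NF-kB-alone peak inside Bcl3. Gm36816 (chr6:67008938-67009237, minus strand) is shown for contrast, as a window that lay wholly under peaks of both factors in both treatments. Capitals mark every match, on either strand, to the longer kB motif (GGG, any 2 letters, TTTCC), the shorter kB motif GGAATTTCC, the IRF motif (GAAA, any 2 letters, GAAA), the PU.1 motif GAGGAAGT (PU.1 is a macrophage lineage factor) and the AP-1 motif TGANTCA.
Tnfaip3: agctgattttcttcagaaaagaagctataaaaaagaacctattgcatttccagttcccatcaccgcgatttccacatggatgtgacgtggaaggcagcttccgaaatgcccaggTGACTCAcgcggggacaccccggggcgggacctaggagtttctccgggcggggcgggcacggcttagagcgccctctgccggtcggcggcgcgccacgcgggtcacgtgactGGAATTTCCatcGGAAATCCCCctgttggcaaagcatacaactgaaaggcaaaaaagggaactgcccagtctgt
Nfkbia: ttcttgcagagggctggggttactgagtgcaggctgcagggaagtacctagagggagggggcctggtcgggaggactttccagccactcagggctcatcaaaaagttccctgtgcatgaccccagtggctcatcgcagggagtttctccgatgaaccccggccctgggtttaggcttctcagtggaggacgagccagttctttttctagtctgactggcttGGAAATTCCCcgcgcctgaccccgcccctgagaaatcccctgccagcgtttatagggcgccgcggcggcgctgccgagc
B2m: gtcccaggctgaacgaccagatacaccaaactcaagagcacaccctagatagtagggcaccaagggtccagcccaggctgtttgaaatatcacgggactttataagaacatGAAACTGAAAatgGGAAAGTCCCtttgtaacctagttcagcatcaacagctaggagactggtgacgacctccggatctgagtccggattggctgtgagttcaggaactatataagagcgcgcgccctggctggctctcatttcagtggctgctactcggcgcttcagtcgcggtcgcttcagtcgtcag
Gm14321: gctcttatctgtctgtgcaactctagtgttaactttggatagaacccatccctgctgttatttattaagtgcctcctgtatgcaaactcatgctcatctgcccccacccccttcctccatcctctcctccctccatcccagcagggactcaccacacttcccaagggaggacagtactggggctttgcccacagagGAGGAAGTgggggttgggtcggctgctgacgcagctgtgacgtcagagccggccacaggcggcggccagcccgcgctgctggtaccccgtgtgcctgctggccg
Gm16174: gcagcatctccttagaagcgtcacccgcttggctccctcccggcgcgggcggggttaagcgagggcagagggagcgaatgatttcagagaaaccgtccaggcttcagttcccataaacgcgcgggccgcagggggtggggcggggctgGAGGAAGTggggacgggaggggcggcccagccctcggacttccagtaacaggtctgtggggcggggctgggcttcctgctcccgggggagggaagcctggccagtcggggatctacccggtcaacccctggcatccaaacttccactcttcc
Gm36816: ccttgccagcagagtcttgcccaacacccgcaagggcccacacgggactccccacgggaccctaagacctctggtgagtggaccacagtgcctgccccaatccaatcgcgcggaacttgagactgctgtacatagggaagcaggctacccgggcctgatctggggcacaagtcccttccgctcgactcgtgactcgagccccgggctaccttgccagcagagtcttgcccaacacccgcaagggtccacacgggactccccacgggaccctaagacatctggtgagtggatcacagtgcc

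In the Tnfaip3 window the capitals are, in order, the AP-1 letters and the 2 kB motifs, the shorter at -24 to -16 and the longer at -12 to -3 from the start site, all under the peak. In the B2m window the IRF letters at -139 to -130 stand shortly before the kB letters at -126 to -117, and both lie under the NF-kB peak, while no IRF3 list held a peak there. In the Nfkbia window both kB motifs overlap in 1 stretch at -29 to -20, which lies outside the peak at -410 to -83. The capitals in the Gm14321 and Gm16174 windows are PU.1 letters under the peak, and the Gm36816 window has no match. Among all 32851 promoter windows, 1.85% held a kB motif, 3.44% the IRF motif, 3.20% the PU.1 motif and 7.81% the AP-1 motif. Of the 24 windows touched by NF-kB-alone peaks with LPS, 3 held a kB motif, 1 the IRF motif, 3 the PU.1 motif and 5 the AP-1 motif, and the PU.1 count includes 2 windows that share the same letters. Of the 10 windows under NF-kB-alone peaks untreated, 1 held a kB motif and 2 the AP-1 motif. Co-occupied IRF3 peaks touched 5 windows untreated, with no match, and 6 with LPS, of which 1 (Gm38579) held a kB motif, outside the peak. Co-occupied NF-kB peaks touched 7 windows untreated, of which 1 held the AP-1 motif, and 5 with LPS, with no match. IRF3-alone peaks touched 1 window untreated, with no match, and 3 with LPS, of which 1 held the PU.1 motif. With so few windows per class, no difference between the classes can be read from these counts. A match is a description of letters and not a measured binding site.

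In the full lists, co-occupied positions made up about the same share of all regions in both treatments, and the composition of the remainder differed. After overlapping peaks of both factors were joined, untreated cells had 3423 regions, of which 1216 were co-occupied, 398 were IRF3 alone and 1809 were NF-kB alone. With LPS there were 2992 regions, of which 1055 were co-occupied, 691 were IRF3 alone and 1246 were NF-kB alone. The co-occupied share of regions was 35.5% (33.9 to 37.2) untreated and 35.3% (33.5 to 37.0) with LPS. This likeness depended on the peaks admitted: with all 4 lists limited to a deposited q-value under 0.05 the shares were 22.4% (18.6 to 26.6) and 38.6% (32.7 to 44.7), and with all lists limited to the same length they were 43.2% (41.2 to 45.3) and 37.5% (35.6 to 39.4). IRF3-alone regions took 11.6% (10.6 to 12.7) untreated and 23.1% (21.6 to 24.6) with LPS, and NF-kB-alone regions took 52.8% (51.2 to 54.5) and 41.6% (39.9 to 43.4). In WT macrophages, classed in the same way, the co-occupied share was 32.2% (30.1 to 34.3) untreated and 30.9% (29.2 to 32.6) with LPS. IRF3-alone regions in WT went the other way, from 26.6% (24.6 to 28.6) untreated to 15.95% (14.6 to 17.3) with LPS. Whether the genotypes differ in this was not tested.

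**Figure D1:**
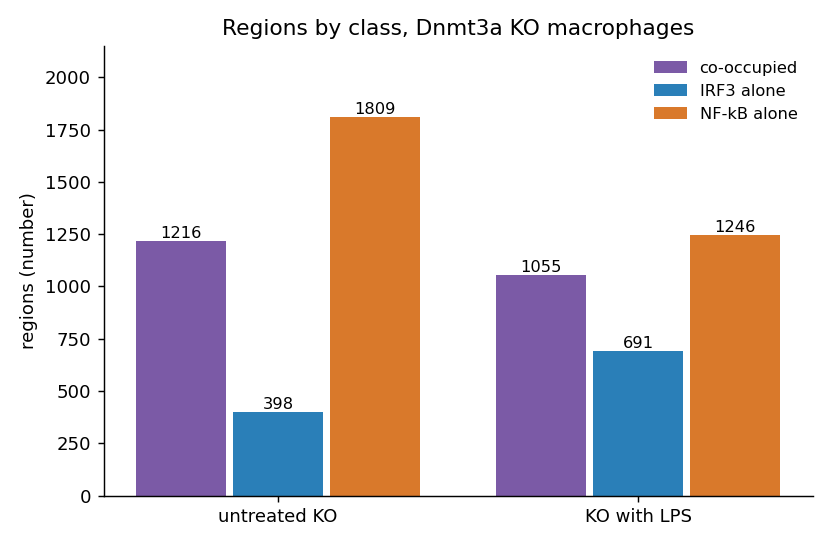
Number of joined regions (vertical axis) in each class for untreated KO and KO with LPS; each bar is 1 count over merged lists, so it has no error bar. IRF3-alone regions numbered 398 untreated and 691 with LPS, and NF-kB-alone regions 1809 and 1246.

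Counted by peak, 1309 of 1707 IRF3 peaks were co-occupied untreated (76.7%, 74.6 to 78.7) and 1101 of 1792 with LPS (61.4%, 59.1 to 63.7). Of the NF-kB peaks, 1256 of 3065 were co-occupied untreated (41.0%, 39.2 to 42.7) and 1130 of 2376 with LPS (47.6%, 45.5 to 49.6). These shares move with the length of the partner list, and the untreated NF-kB list is the longest. With all 4 lists limited to their best 1707 peaks, the IRF3 share was 63.4% untreated and 55.8% with LPS, and the NF-kB share was 59.2% and 54.9%. The IRF3 share was again lower with LPS, whereas for NF-kB the order of the treatments turned. Equal length does not equalise the samples merged, 2 for the untreated IRF3 list and 3 for each other KO list, and no cause was tested. At equal length the NF-kB-alone regions also turned, to 696 untreated and 770 with LPS, and the IRF3-alone regions were 624 and 754.

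The partner list of the other treatment gave a second view of the same point. IRF3 peaks of LPS-treated cells overlapped the untreated NF-kB list in 68.8% (66.6 to 70.9), more than the 61.4% for the NF-kB list of their own treatment. IRF3 peaks of untreated cells overlapped the LPS NF-kB list in 64.1% (61.8 to 66.4), less than the 76.7% for their own. In both cases the share was higher with the longer, untreated NF-kB list. Of the 673 joined regions that were IRF3 alone with LPS, 274 (40.7%, 37.0 to 44.5) held an NF-kB peak in untreated cells. Of the 383 that were IRF3 alone untreated, 109 (28.5%, 24.0 to 33.3) held an NF-kB peak with LPS. An IRF3-alone call in 1 treatment therefore often sat at a position where NF-kB was listed in the other.

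Where both factors were listed, their peaks covered nearly the same stretch. The 1349 overlapping pairs of untreated cells shared a median of 1111 bp, and the 1176 pairs with LPS shared 1154 bp. In 54.3% of pairs untreated and 56.5% with LPS, 1 peak lay wholly inside the other. The midpoints were a median of 104 bp apart untreated and 113 bp with LPS. Only 4 and 6 pairs shared under 50 bp. The IRF3 peak was the narrower of the pair in 61.7% of pairs untreated and in 41.3% with LPS. Separate peaks close to each other were few: 13 of 398 IRF3-alone peaks untreated and 15 of 691 with LPS had an NF-kB peak within 500 bp, and so did 15 of 1809 and 23 of 1246 NF-kB-alone peaks for IRF3. The fractional ranks of the paired peaks had a Spearman rho of 0.53 untreated and 0.55 with LPS over those pairs, given as a description since the pairs come from the same cells and treatment.

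Co-occupancy went with rank. Peaks were ranked within each list by the deposited p-value. In the best 10% of the IRF3 list, 97.7% (94.1 to 99.4) of peaks were co-occupied untreated and 97.2% (93.6 to 99.1) with LPS. In the last 10% the IRF3 shares were 52.9% (45.1 to 60.6) and 34.1% (27.2 to 41.5). For NF-kB the best 10% held 96.1% (93.3 to 98.0) untreated and 87.0% (82.0 to 91.0) with LPS, and the last 10% held 13.1% (9.51 to 17.4) and 24.5% (19.1 to 30.5). Of the 100 best-ranked peaks, 97 were co-occupied in each untreated list, 98 in the IRF3 list with LPS and 92 in the NF-kB list with LPS. The NF-kB list with LPS was thus the one with the most single-factor peaks near its head. The genes nearest to the 5 best of those peaks with a gene within 100 kb are named further on.

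**Figure D2:**
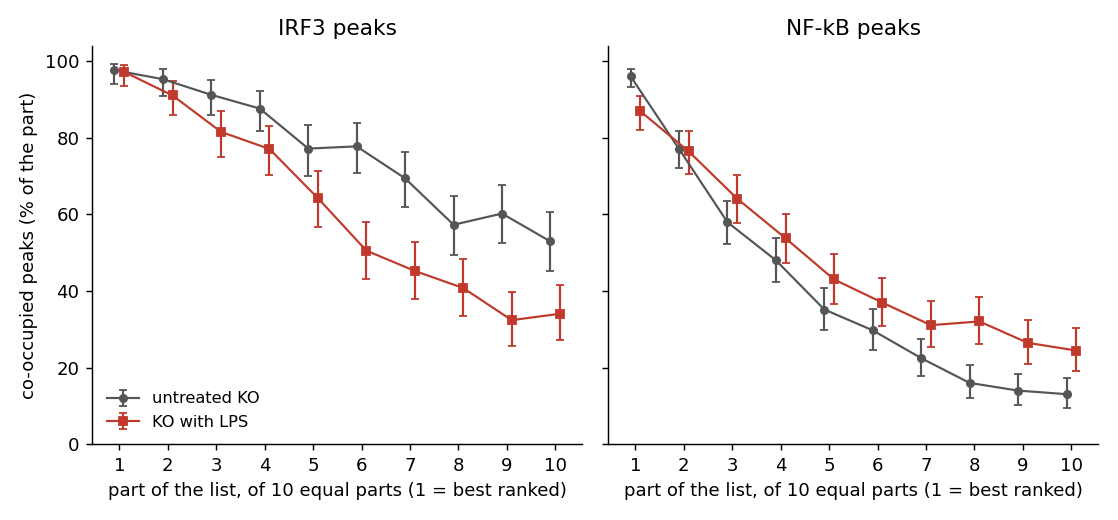
Share of peaks that were co-occupied (vertical axis, percent) in each of 10 equal parts of a list ordered by deposited p-value, for IRF3 (left) and NF-kB (right); points are shares and bars exact 95% intervals of counting error. All 4 lines start at 87.0% or more, and the NF-kB line with LPS starts lowest and ends above the untreated one.

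Few peaks passed a deposited q-value of 0.05, and those that did were mostly co-occupied. In the IRF3 lists 114 peaks untreated and 143 with LPS passed, of which 110 and 139 were co-occupied, leaving 4 IRF3-alone peaks in each treatment. In the NF-kB lists 422 and 227 peaks passed, of which 398 and 197 were co-occupied, leaving 24 NF-kB-alone peaks untreated and 30 with LPS. Many of the best peaks recur in every condition: 81 and 84 of the 100 best IRF3 peaks, and 79 and 79 of the 100 best NF-kB peaks, untreated and with LPS, lay in the 360 regions that all 8 lists of both genotypes share. Of co-occupied peaks, 29.1% (IRF3) and 29.1% (NF-kB) lay in these regions untreated and 33.4% and 33.9% with LPS, against at most 1.01% of any alone class. A region in all 8 lists holds peaks of both factors in each treatment by definition. This contrast therefore follows from how the regions were chosen and is no separate result. Without these regions the co-occupied share of IRF3 peaks was 70.2% untreated and 51.6% with LPS.

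Width separated the classes as well. The median co-occupied IRF3 peak was 1319 bp wide untreated and 1496 bp with LPS, against 825 bp and 816 bp for IRF3 alone. The median co-occupied NF-kB peak was 1453 bp and 1415 bp, against 646 bp and 554 bp for NF-kB alone. Peaks under 500 bp, called narrow here, made up 38.6% (36.3 to 40.9) of NF-kB-alone peaks untreated and 46.8% (44.0 to 49.6) with LPS. Among co-occupied NF-kB peaks the narrow share was 5.97% (4.73 to 7.43) and 10.2% (8.48 to 12.1). A wide interval offers more bases for an overlap, so the shares were also read within classes of width. At 2000 bp or more, 95.2% and 92.6% of IRF3 peaks and 86.8% and 85.9% of NF-kB peaks were co-occupied, untreated and with LPS. Under 250 bp, 50.6% (39.8 to 61.3) of IRF3 peaks were co-occupied untreated and 13.9% (7.16 to 23.5) with LPS, the largest gap between treatments among the 5 width classes. For NF-kB the gap had the other sign in the 4 classes under 2000 bp: from 500 to under 1000 bp, for example, 27.9% (24.9 to 31.1) were co-occupied untreated and 42.9% (38.7 to 47.2) with LPS. The IRF3 share was lower with LPS in each width class, with the smallest gap among the widest peaks, where the intervals overlap. Whether width has a part in the differences between treatments was not tested.

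**Figure D3:**
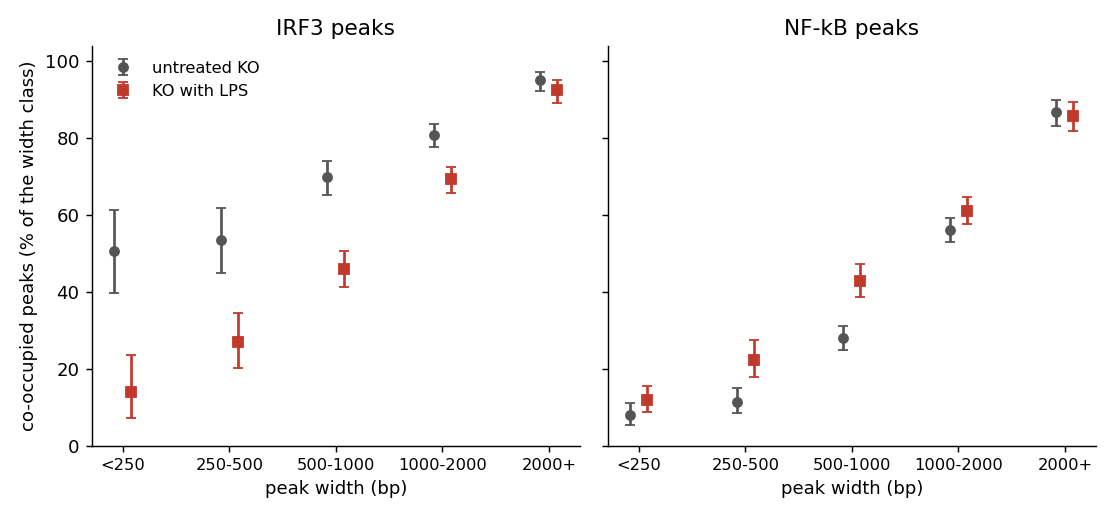
Share of peaks that were co-occupied (vertical axis, percent) by peak width (horizontal axis, bp), for IRF3 (left) and NF-kB (right), with exact 95% intervals of counting error. Under 250 bp the IRF3 shares were 50.6% untreated and 13.9% with LPS, and at 2000 bp or more they were 95.2% and 92.6%.

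Joining all 4 KO lists gave 4477 regions, which shows how each position was classed in both treatments. Co-occupied regions were listed again most often: 741 of 1216 (60.9%, 58.1 to 63.7) were also co-occupied with LPS, and 359 of these 741 are among the regions in all 8 lists. Another 120 were IRF3 alone with LPS, 176 were NF-kB alone and 179 had neither factor. NF-kB-alone regions were most often missing from the other treatment: 1166 of 1763 (66.1%, 63.9 to 68.3) had neither factor with LPS, 272 were NF-kB alone again, 171 were co-occupied and 154 were IRF3 alone. Of 383 IRF3-alone regions 222 had neither factor with LPS, and only 52 (13.6%, 10.3 to 17.4) were IRF3 alone again. In the other direction 676 of 1179 NF-kB-alone regions with LPS (57.3%, 54.5 to 60.2) had had neither factor untreated, and they were narrow, with a median of 302 bp. By contrast 92 of 1058 co-occupied regions with LPS (8.70%, 7.07 to 10.6) had no peak of either factor untreated. Positions listed in 1 treatment alone were therefore mostly single-factor positions in either direction: 179 of 1567 untreated-only regions and 92 of 1115 LPS-only regions were co-occupied. Of all regions within a treatment, 35.5% untreated and 35.3% with LPS were. Co-occupied regions were also wider (medians of 1620.5 bp untreated and 1668 bp with LPS, against 554 to 825 bp for the alone classes). A wider region meets a peak of the other treatment more easily, and the part of width was not tested.

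**Figure D4:**
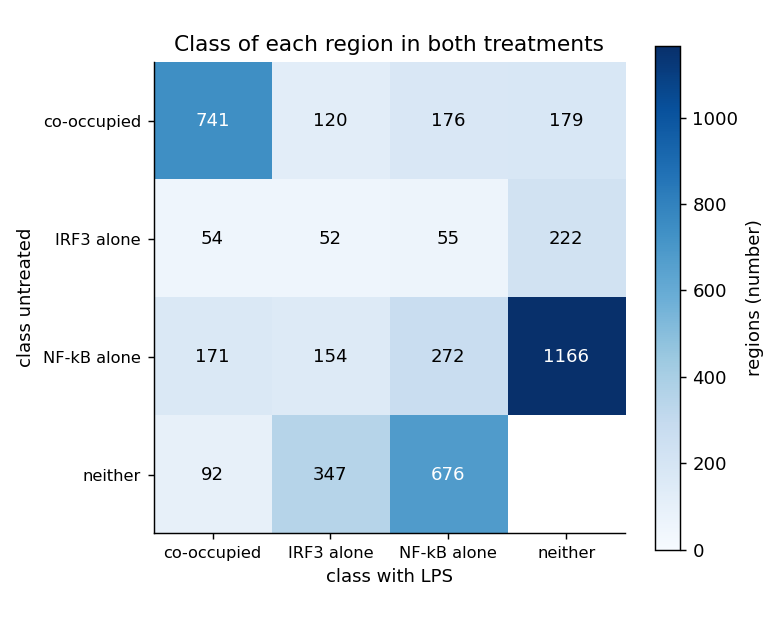
Number of joined regions by class in untreated cells (rows) and with LPS (columns); darker cells hold more regions, and the empty cell is regions in neither treatment. The fullest cells are NF-kB alone to neither (1166), co-occupied in both (741) and neither to NF-kB alone (676).

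The best-ranked regions of such groups that had a protein-coding gene within 100 kb show what lies nearby. At Smo, the signal transducer of the Hedgehog pathway, NF-kB was listed at rank 19 untreated and rank 180 with LPS, and IRF3 joined with LPS at rank 1264. At Uxs1, an enzyme of nucleotide sugar synthesis, NF-kB had ranks 164 and 187 and IRF3 joined at rank 331. At Pdzk1, a scaffold protein, NF-kB had ranks 140 and 310 and IRF3 joined at rank 1304. In Dock2, an activator of Rac in leukocytes, IRF3 was at rank 818 untreated and 362 with LPS, and NF-kB joined at rank 340. The co-occupied region 5392 bp from Tmem18 had ranks 247 (IRF3) and 201 (NF-kB) untreated and no peak with LPS. The region 29468 bp from Mid1, a ubiquitin ligase gene on chromosome X, had IRF3 in both treatments (ranks 129 and 89) and NF-kB in untreated cells (rank 868) but not with LPS. The region 39008 bp from Tnfrsf11b, which encodes the decoy receptor osteoprotegerin, had NF-kB untreated at rank 456 and neither factor with LPS. Some regions with a gene within 100 kb had neither factor untreated and were co-occupied with LPS. The best-ranked of them lay at Herc2 (IRF3 rank 934, NF-kB rank 665), at 4921528I07Rik (495 and 1495) and 68062 bp from Fnd3c2 (682 and 465). None of these newly co-occupied regions ranked near the head of either list.

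The best-ranked co-occupied regions recurred in most lists of the series. The best region in both treatments was on chromosome 4, 80936 bp from the vomeronasal receptor gene Vmn1r2, at ranks 1 (IRF3) and 2 (NF-kB) untreated and 1 and 1 with LPS. It was followed by a region of 7546 bp that lies 2758 bp from 9230019H11Rik (ranks 3 and 4 untreated, 3 and 2 with LPS). Among regions with a gene within 100 kb, the other leaders lay near Vmn2r129, Gm15319 and Zfp825 untreated and near Gm15319, Gm39469 and Tmem267 with LPS. All 5 of the untreated leaders are in regions listed in all 8 lists. Neither the leaders nor the other regions in all 8 lists were checked against a list of artefact-prone positions of the build. Whether both factors bind there was therefore not tested. Over whole classes, the nearest gene belonged to a family of similar copies (olfactory and vomeronasal receptors, zinc finger genes and the like, 15.1% of all protein-coding genes) for between 14.1% and 17.4% of peaks, a range that includes the share of all genes.

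IRF3-alone peaks had 1 clear leader. In Itgb5, which encodes the integrin subunit beta 5, a peak at chr16:33849183-33849666 was at IRF3 rank 2 untreated (484 bp, deposited signal 69.4, q = 2.83e-06) and at rank 2 with LPS (351 bp, signal 46.7, q = 5.60e-06). The WT IRF3 lists held it at rank 3 untreated (408 bp, signal 31.3) and rank 2 with LPS (322 bp, signal 23.8), and no NF-kB list held it. Signal values of different lists share no stated scale and are not compared. Over all 8 lists only 2 regions were in all 4 IRF3 lists and in no NF-kB list. The second lay about 4.5 kb from the olfactory receptor gene Olfr1055, with widths of 171 bp untreated and 233 bp with LPS in KO and ranks of 307 and 160. The mirror group, in all 4 NF-kB lists and no IRF3 list, had 34 regions with a median width of 1522 bp. Its leader overlapped Gm17660, with NF-kB ranks 82 untreated and 20 with LPS in KO and 203 and 50 in WT. Factor-specific positions that recurred across conditions were thus more often NF-kB positions, whose lists are also the longer ones.

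Among IRF3-alone peaks with a protein-coding gene within 100 kb, the next by rank were less particular to IRF3. Peaks farther from genes were not named. Untreated, they lay 1286 bp from Mid1 (rank 61), in Zfp600 (rank 107), 19553 bp from the gamma actin gene Actg1 (rank 182) and 20105 bp from the lens crystallin gene Crygf (rank 280). Of these the Actg1 peak alone, 241 bp wide, was in no other list of the 8, and the other 3 lay under NF-kB peaks of the LPS-treated KO. With LPS, those after Itgb5 lay near Mid1 (rank 89), Gm21977 (rank 135), Olfr1055 (rank 160) and the tachykinin receptor gene Tacr1 (rank 215), and all but the Olfr1055 peak had an NF-kB peak in untreated KO. Over the class, 52.0% (47.0 to 57.0) of IRF3-alone peaks untreated and 55.4% (51.6 to 59.2) with LPS overlapped at least 1 of the other 3 NF-kB lists. The shares found in none of the other 6 lists were 33.9% (29.3 to 38.8) and 37.6% (34.0 to 41.4).

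NF-kB-alone peaks of LPS-treated cells lay closer to genes than the other classes. The median distance from such a peak to the nearest protein-coding gene span was 15768 bp, against 23976 bp for NF-kB-alone peaks untreated and between 30821 and 39628 bp for the other 6 classes. Of the NF-kB-alone peaks with LPS, 34 of 1246 were within 1 kb of a gene end (2.73%, 1.90 to 3.79), against 30 of 1809 (1.66%, 1.12 to 2.36) untreated and 17 of 1130 (1.504%, 0.879 to 2.40) of the co-occupied NF-kB peaks with LPS. Of those 34 peaks, 25 were both narrow and absent from the untreated NF-kB list. Of the 462 narrow NF-kB-alone peaks that were absent from the untreated NF-kB list, 25 (5.41%, 3.53 to 7.88) were as close as that, against 5 of 278 wide ones (1.80%, 0.587 to 4.15). Among NF-kB-alone peaks with LPS that were also present untreated, 0 of 121 narrow ones (upper limit 3.00%) and 4 of 385 wide ones (1.04%, 0.284 to 2.64) were. The 616 narrow peaks found untreated and not with LPS had 13 (2.11%, 1.13 to 3.58). Promoter windows of protein-coding genes were touched by 13 NF-kB-alone peaks with LPS and 3 untreated, by 1 and 2 IRF3-alone peaks untreated and with LPS, and by no co-occupied peak of either factor in either treatment.

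The fixed lists of genes were counted with a wider reach than the 1 kb above. Of 52 genes known as NF-kB targets in inflammation, 14 (26.9%, 15.6 to 41.0) had an NF-kB-alone peak inside or within 10 kb with LPS, where 2.28% of all protein-coding genes had one. Untreated, 2 of the 52 had one (3.85%, 0.469 to 13.2), against 3.11% of all genes. The gene lists were chosen with earlier results of these data known, so these contrasts are descriptions and not tests. None of the 52 had a co-occupied peak of either factor or an IRF3-alone peak within 10 kb in either treatment (upper limit 6.85%), where between 0.612% and 2.17% of all genes did, so these counts of 0 do not set the 52 apart from all genes. None of the 14 lay within 10 kb of a peak in any of the 4 IRF3 lists, WT included. At 50 kb, 1 target, Cxcl3, had a co-occupied peak with LPS. The peaks at the 14 genes were narrow in 12 of them, reached ranks from 53 to 2299, and passed a q-value of 0.05 at 4 genes. At 7 of the 14 a peak lay within 1 kb of an end of the gene. In the WT list with LPS 6 of the 14 also had an NF-kB peak.

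Among the 14 were 5 genes of A20 feedback and the IkB family, which act on NF-kB signalling, with best ranks spread from 53 to 2153. Tnfaip3 encodes the ubiquitin-editing enzyme A20, and its start site lay under an NF-kB peak of 372 bp at rank 53 (q = 0.00297), the fifth best of all NF-kB-alone peaks with a gene nearby. A second peak of 281 bp at rank 435 adjoined it inside the gene without a gap. The WT list with LPS held a 302 bp peak there at rank 389, and the untreated lists of both genotypes held none. Tnip1, whose product works with A20, had adjoining peaks of 250 bp (rank 163, q = 0.0299) and 270 bp (rank 590) inside the gene. Bcl3, an IkB family member that acts in the nucleus, had a 146 bp peak at rank 767, and WT with LPS had one of 170 bp at rank 1998. Nfkbia, the inhibitor of NF-kB itself, had a 328 bp peak 83 bp outside its annotated span at rank 2153, with a deposited q-value of 0.912. Nfkbiz, an inducible IkB protein, had a 325 bp peak inside the gene at rank 965. Nfkbia, Nfkbiz, Bcl2a1a and Ripk2 fell outside the 10 genes that the naming rule allows for the list of 52 targets and were named after their values were seen.

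The other targets were signalling, survival and effector genes. Malt1, a paracaspase of NF-kB signalling, had a 208 bp peak at rank 133 (q = 0.0195), 344 bp from its span, and WT with LPS had one at rank 365. Sod2, the mitochondrial superoxide dismutase, had a 284 bp peak inside the gene at rank 170 (q = 0.0318), and WT with LPS had one at rank 284. Birc3, an inhibitor of apoptosis, had a 177 bp peak from 8 to 184 bp after its start site at rank 601. Nlrp3, the inflammasome sensor, had adjoining peaks of 142 bp (rank 653) and 125 bp (rank 1650) that end 15 bp before its start site. Il1b, a cytokine that inflammasomes release, had adjoining peaks of 239 bp (rank 752) and 202 bp (rank 2089) about 9.5 kb away. Tlr2, a receptor for bacterial lipoproteins, was the target gene with the widest peak (2648 bp, rank 667), and the only one of the 14 that untreated KO also listed (1602 bp, rank 664). Bcl2a1a, a survival gene with near-identical copies, had a 139 bp peak at rank 2299, and reads there may be split among the copies. Ripk2, a kinase of NOD receptor signalling, had a peak in untreated cells and none with LPS (555 bp, rank 1570).

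**Figure D5:**
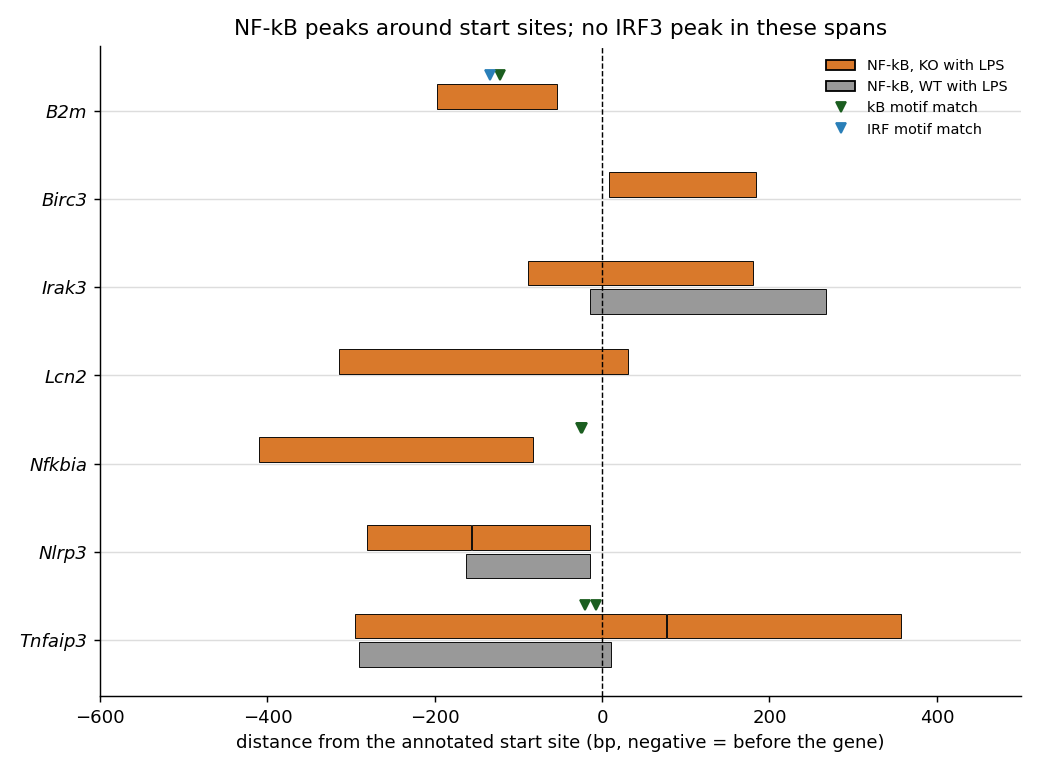
NF-kB peaks of KO with LPS (orange) and WT with LPS (grey) around the start sites of the 7 genes of the fixed lists whose promoter window an NF-kB-alone peak touched (horizontal axis, bp from the annotated start), with kB matches (green) and the IRF match (blue) as triangles. No IRF3 peak and no untreated peak lay within 1500 bp of these starts, and the WT list had a peak at 3 of the 7 genes.

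Acute-phase and iron genes were counted in the same way, from a list likewise chosen with earlier results of these data known. Of 15, 5 had an NF-kB-alone peak with LPS (33.3%, 11.8 to 61.6), against the same 2.28% of all genes. Fth1, the ferritin heavy chain that stores iron, had a 523 bp peak at rank 28 (q = 0.000693), 5208 bp from the gene, and a 971 bp peak at rank 497, 1722 bp from it. WT with LPS had peaks at both positions, of 473 bp (rank 119) and 150 bp (rank 1151). Lcn2, which binds bacterial iron carriers, had a 347 bp peak across its start site at rank 301 (q = 0.0830). The serum amyloid A gene Saa3 had a 527 bp peak at its gene end at rank 1005. A 158 bp peak at rank 177 (q = 0.0343) lay between Saa1 (2664 bp away) and Saa2 (5831 bp away), which are similar copies of each other. Lcn2 and Saa3 are also among the 52 targets, and none of the Lcn2, Saa1, Saa2 and Saa3 peaks was in a WT list or an untreated list. Ptx3, an acute-phase pattern receptor, was the member with a co-occupied region with LPS, 6451 bp away, where the IRF3 peak of 579 bp was at rank 1373 and the NF-kB peak of 979 bp at rank 1095. C3, the central complement component, had an untreated NF-kB-alone peak (480 bp, rank 2546).

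At genes of the interferon arm, the counts of peaks could not be told from those of all genes. Of 42 interferon-stimulated genes, Ifnb1, Cxcl10, Isg15, Rsad2 and the Ifit genes among them, none had an IRF3 peak of either class within 10 kb in either treatment (upper limit 8.41%), where 2.15% and 1.87% of all genes had a co-occupied IRF3 peak untreated and with LPS, and 0.612% and 1.15% an IRF3-alone one; the limit lies above all 4 of these shares. Trim30a, an interferon-induced regulator, was the single member with any KO peak, as NF-kB alone with LPS at ranks 2013 and 2366. Among 21 genes of nucleic acid sensing and IRF activation, 2 had an NF-kB-alone peak untreated (9.52%, 1.17 to 30.4) and 1 with LPS (4.76%, 0.120 to 23.8). Tbk1, the kinase of IRF3, had NF-kB-alone peaks in both treatments (ranks 1605 and 2632 untreated, 1244 with LPS) at different positions inside the gene. Ddx58, the RNA sensor RIG-I, had one untreated (785 bp, rank 1030). Among 25 genes of Toll-like receptor signalling, Ly96, the co-receptor of LPS, had overlapping NF-kB-alone peaks in both treatments (826 bp at rank 1258 and 352 bp at rank 1991). Map3k7, the kinase TAK1, had one untreated (rank 2728), and Irak3, a negative regulator, had a 269 bp peak across its start site with LPS at rank 948, with a WT peak of 284 bp at rank 1728. The exact intervals of these counts of 1 or 2 genes per list include the 3.11% and 2.28% of all genes with such a peak untreated and with LPS.

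Co-occupied NF-kB peaks lay within 10 kb of 2.17% of all genes untreated and 1.87% with LPS, and 4 listed genes had a co-occupied peak of either factor in either treatment, of which Ptx3 is described above. Dusp5, a nuclear phosphatase of ERK and 1 of 27 immediate early genes (3.70%, 0.0937 to 18.97), had both factors in both treatments about 3 to 4 kb away: IRF3 ranks were 362 untreated and 1444 with LPS, and NF-kB ranks 1348 and 780. Sirpa, the inhibitory receptor for CD47, had both factors inside the gene in both treatments, with IRF3 ranks 460 and 324 and NF-kB ranks 859 and 2308. Fcgr1, a high-affinity antibody receptor that marks macrophages, had a co-occupied region about 9.5 kb away, which is 1 of the regions in all 8 lists (NF-kB ranks 212 and 344, IRF3 rank 90 with LPS). Of 30 genes of macrophage identity, 2 had a co-occupied NF-kB peak in each treatment (6.67%, 0.818 to 22.1). The intervals of both lists include the shares of all genes. As NF-kB-alone members, Adgre1, which encodes the marker F4/80, had a 146 bp peak over its gene end with LPS (rank 222, q = 0.0490), Lyz1 had one 9046 bp away (rank 1264), and Mertk, a receptor for dying cells, had one untreated (rank 1742). These were 2 of the 30 genes with LPS (6.67%, 0.818 to 22.1) and 1 untreated (3.33%, 0.0844 to 17.2). The intervals include the 2.28% and 3.11% of all genes with such a peak. B2m, the light chain of class I molecules, had the 144 bp peak whose window is printed above at rank 1484, and was the 1 member of 16 antigen presentation genes with a KO peak (6.25%, 0.158 to 30.2, against 2.28% of all genes).

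IRF3-alone peaks lay within 10 kb of 2 listed genes, both with LPS, where 1.15% of all genes had one. They were 1 of 11 genes of the DNA methylation machinery and 1 of 5 stromal markers. Dnmt3b, the other de novo DNA methyltransferase, had an IRF3-alone peak with LPS 3792 bp away (1557 bp, rank 1146), and the WT list with LPS had a 394 bp peak inside it at rank 1237. Both have high deposited q-values, 0.622 and 0.902. Kitl, a stromal growth factor gene, had a 236 bp peak 9292 bp away with LPS (rank 1673). The marker lists of T cells, B cells and neutrophils (5 genes each) and of dendritic cells (4 genes) had no gene with a peak of any class, which allows shares of up to 52.2% and 60.2%. With between 0.612% and 3.11% of all genes near a peak of a given class, lists of this length say nothing about those cells.

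Away from the lists, the best NF-kB-alone peaks with LPS included the one 86984 bp from Cebpb, a transcription factor of inflammatory gene expression, at rank 38 (456 bp, q = 0.00146), and one in Fyb, an adaptor of immune cell adhesion, at rank 48 (339 bp, q = 0.00218). Both were in the WT list with LPS, at ranks 134 and 642, and in no untreated or IRF3 list. Together with Fth1 and Tnfaip3 they belong to 101 regions that were listed for NF-kB with LPS in both genotypes, in no untreated list and in no IRF3 list, with a median width of 446 bp. The mirror group for IRF3, with LPS in both genotypes and in no untreated or NF-kB list, had 12 regions, with a median width of 1594 bp, and none within 1 kb of a gene end. Untreated, the best NF-kB-alone peaks with a gene within 100 kb lay, after Smo, at Gm17660, Pdzk1, Uxs1 and 7768 bp from Cox7b2 (rank 191). Of these 5, 4 lay under IRF3 peaks of the LPS-treated KO, all but Gm17660.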

How the data were processed

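Per the labels, each deposited peak list merges the replicates of 1 group, and the 4 KO lists of IRF3 and NF-kB were used, with the 4 WT lists for comparison. Per the submitters' processing notes, the build is mm10 and the tools named are MACS2 2.1.1, deepTools 3.5.0, Picard 2.8.0, Trim Galore 0.4.5, HOMER 4.9 and others, with no role given, and with the aligner, the calling and merging settings and the read depth likewise not given in the sources used here. Each deposited peak carries a score (a signal value with no stated scale), a p-value and a q-value, all made by the authors, which were used only for ordering and thresholds inside 1 list. Only peaks on the autosomes 1 to 19, X and Y were counted, and no KO peak lay on Y. Ties in p-value were broken by signal, width and position.

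Overlap was counted in Python 3.11.15 with pandas 2.3.3 and numpy 2.4.6, and exact intervals with SciPy 1.17.1; counting was checked on simulated lists. Gene spans came from GRCm38.p6 (21887 protein-coding genes, spans without exons), so exons and introns were not told apart, and promoter sequences came from the RefSeq table of that assembly. The 14 gene lists hold 261 symbols, of which 258 matched. The members and lists were chosen with earlier results of these data known. Named were the 5 best-ranked peaks per class and treatment with a gene within 100 kb, the 3 best per pair of classes (a selection of which is printed), and up to 10 members per list with a peak within 10 kb.

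Alternatives were the required overlap, the q-value and p-value, equal list lengths, regions in all 8 lists, narrow peaks, sex chromosomes and the distance to genes. Without a genome sequence, motifs and base composition under peaks outside promoter windows were not analysed here. Samples of input, ATAC-seq and bisulfite sequencing were not used here.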

Additional observations from a re-analysis of the deposited data

How the results depend on the processing

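No paired analysis was possible because each deposited list merges its replicates, and for the same reason no replicate was left out. In 56 of 112 recomputed values the result stayed within its counting interval, within 1.5 times for a count or within the quartiles for a width, and in 56 it did not. Shares are given in the order IRF3 untreated, IRF3 with LPS, NF-kB untreated, NF-kB with LPS. No share moved when an overlap of 50% of the shorter peak was required, when peaks within 500 bp also counted, or without chromosomes X and Y. The shares were 86.0%, 72.0%, 23.2% and 45.4% at a q-value under 0.05, and 83.8%, 55.3%, 36.3% and 55.4% at a p-value under 0.05. They were 63.4%, 55.8%, 59.2% and 54.9% at equal list length, 70.2%, 51.6%, 33.0% and 37.6% without regions in all 8 lists, and 79.1%, 65.1%, 50.04% and 59.2% without peaks under 500 bp. With narrow peaks alone in both lists, an alternative chosen after seeing the data, they were 13.2%, 10.0%, 4.01% and 3.44%. The IRF3 share was lower with LPS under every one of these settings, and the NF-kB share was higher with LPS except at equal length and among narrow peaks alone. The q-value and p-value settings cut both lists, so a peak counted as alone where its partner missed the threshold. Set against the full partner lists, peaks with a q-value under 0.05 were co-occupied in 96.5%, 97.2%, 94.3% and 86.8%. There the IRF3 share was not lower with LPS, and the NF-kB share was not higher.

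At a q-value under 0.05, with both lists cut, the co-occupied, IRF3-alone and NF-kB-alone regions numbered 98, 16 and 324 untreated and 103, 40 and 124 with LPS. In this setting 65 regions were co-occupied in both treatments, and 71 present in both had another class. The co-occupied share of regions, 35.5% untreated and 35.3% with LPS in the full lists, was 22.4% and 38.6% at that q-value, 33.6% and 37.6% at a p-value under 0.05, 43.2% and 37.5% at equal length, and 27.98% and 26.5% without regions in all 8 lists. At a p-value under 0.05 IRF3-alone regions untreated numbered 172 and NF-kB-alone regions with LPS 721. At equal length IRF3-alone regions untreated numbered 624 and NF-kB-alone regions 696 and 770. Without regions in all 8 lists 696 regions were co-occupied with LPS and 382 in both treatments. Medians of width stayed within their quartiles.

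For NF-kB targets with an NF-kB-alone peak with LPS, the count was 4 at a q-value under 0.05 (Malt1, Sod2, Tnfaip3 and Tnip1). For those peaks untreated it was 0 at that q-value and 1 within 1 kb, and co-occupied peaks reached 1 target in each treatment within 50 kb. For the other lists, at a q-value under 0.05 in both factors the counts were 0 and 0 (co-occupied, untreated and with LPS), 1 (IRF3 alone with LPS) and 1 and 4 (NF-kB alone). The IRF3-alone gene there was Fcgr1 (IRF3 q = 0.0231), whose overlapping NF-kB peak missed the threshold (q = 0.0957). Within 1 kb they were 1 and 1, 0, and, for NF-kB alone with LPS, 7. Within 50 kb they were 5 (co-occupied untreated), 4 (IRF3 alone with LPS) and 13 (NF-kB alone untreated). Read depth is unknown, and the untreated KO IRF3 list merges 1 sample fewer than the other KO lists. A peak missing from a list was therefore not detected there and is not shown to be absent.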
